A study of Mus musculus with 4 samples.

Results

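The 8 genes described here, Kit, Ly6a, Cd34, Flt3, Slamf1, Cd48, Cd27 and Procr, encode surface proteins by which mouse haematopoietic stem and progenitor cells are sorted. They were taken by gene symbol from the 55357 genes of the count matrices. Single-cell RNA-seq had been made on LSK cells (lineage-negative, Sca-1-positive, Kit-positive) sorted from the bone marrow of wild-type mice. One group had been injected intraperitoneally over 2 weeks with Yoda1 (a chemical opener of the ion channel Piezo1), and the other was a control that the labels also call vehicle. Each group had 2 libraries, called here Yoda1 1, Yoda1 2, control 1 and control 2, and values listed per library follow that order. Strain, age and sex are not stated in the labels, nor whether a library came from 1 mouse or several, so the spread behind each p-value is that of libraries and could be technical. Both 10x Genomics and Singleron devices appear in the labels, which leaves the capture method unsettled.

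Kit is the receptor of stem cell factor, and Sca-1, the product of Ly6a, is a small membrane-anchored protein of the Ly6 family whose gene responds to interferon. Together they define the LSK sort. Within it, long-term stem cells are separated from multipotent progenitors by low CD34, absence of the cytokine receptor Flt3, and presence of the endothelial protein C receptor EPCR, the product of Procr. The SLAM code uses CD150, the product of Slamf1, against its family member CD48. In mouse marrow CD150-positive, CD48-negative LSK cells are rich in stem cells, and CD150 is also carried by progenitors of the megakaryocyte and red cell lines. CD27, a receptor of the tumour necrosis factor family, is carried by most multipotent and lymphoid-primed progenitors.

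After filtering, the libraries held 9122, 9756, 7620 and 7822 cells with a median of 10183.5, 7311, 11220 and 9410.5 UMIs (unique molecular identifiers, 1 per captured transcript). Pairs of libraries shared 8 to 26 barcodes, at most 0.332% of the smaller one. Cells were placed in 5 gates by 4 marker genes each, none of them among the 8. The stem gate needed transcripts of at least 2 of Hlf, Mecom, Fgd5 and Ctnnal1, the lymphoid gate of Dntt, Il7r, Rag1 and Ly6d, and the megakaryocyte-erythroid gate of Gata1, Klf1, Gfi1b and Itga2b. The granulocyte-monocyte gate (Elane, Prtn3, Ctsg, Ms4a3) and the monocyte-dendritic gate (Irf8, Ly86, Csf1r, Cybb) needed 3 of the 4. Both Yoda1 libraries stood apart, in different ways. Yoda1 2 had 29.6% of its cells in the stem gate, against 9.13% in Yoda1 1 and 5.28% and 8.62% in the controls. Yoda1 1 had the highest sum of 8 interferon response genes over all kept cells, 1427 CPM (counts per 1000000 UMIs), against 340 in Yoda1 2 and 543 and 424 in the controls. Cells that passed more than 1 gate (1497, 490, 1725 and 910) were kept apart, and their median depth of 17188.5 to 19425 UMIs was the highest of any class. The 12 lineage antigens that the sort depletes summed to 11.6, 48.1, 21.5 and 48.3 CPM over all kept cells. In the lymphoid gate they summed to 15.7, 348, 228 and 507 CPM, so the content of that gate differed between libraries.

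Over all kept cells every one of the 8 genes was detected in every library. Kit (chromosome 5, 75574916 to 75656722, plus strand, GRCm38) was at 105 and 156 CPM in the Yoda1 libraries, against 98.4 and 130 CPM in the controls. Ly6a (chromosome 15, 74994877 to 74998031, minus strand) was at 262 and 114 CPM in the Yoda1 libraries, against 113 and 97.9 CPM in the controls. In CPM Ly6a was the only member whose Yoda1 libraries both lay above both controls, and the lower Yoda1 library exceeded the higher control by less than 1 CPM. Among all 18182 genes tested, 9.4% lay above both controls in that way and 9.95% below.

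Cd34 (chromosome 1, 194938819 to 194961279, plus strand), which encodes a sialomucin of progenitors, was at 262 and 435 CPM in the Yoda1 libraries, against 239 and 297 CPM in the controls. Flt3 (chromosome 5, 147330741 to 147400489, minus strand) was at 54.4 and 154 CPM in Yoda1, against 55.0 and 84.3 CPM in control. Cd27 (chromosome 6, 125232622 to 125237010, minus strand) was at 112 and 207 CPM in Yoda1, against 114 and 141 CPM in control. In all 3 genes Yoda1 2 was the highest library and Yoda1 1 lay within the range of the controls or just below it, so the groups overlapped. Procr (chromosome 2, 155751117 to 155755471, plus strand) was at 6.64 and 32.5 CPM in Yoda1, against 5.14 and 6.93 CPM in control. The high value was again that of Yoda1 2 alone, the library with the largest stem gate.

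The SLAM pair differed much in abundance. Slamf1 (chromosome 1, 171767127 to 171801184, plus strand) had 416 and 316 UMIs in the whole Yoda1 libraries, against 313 and 392 in the controls, which is 3.76 and 3.49 CPM against 3.04 and 4.4 CPM. Cd48 (chromosome 1, 171682009 to 171705258, plus strand) was at 130 and 107 CPM in Yoda1, against 101 and 141 CPM in control. Both groups overlapped in both genes. The positions of Cd34, Flt3, Cd48 and Cd27 overlap other annotated genes (Gm16897, Gm26597, Gm37010, and Vamp1 with Mir8113), and the sources used here do not say how the counting treated such reads, so these counts carry that uncertainty.

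**Figure D1:**
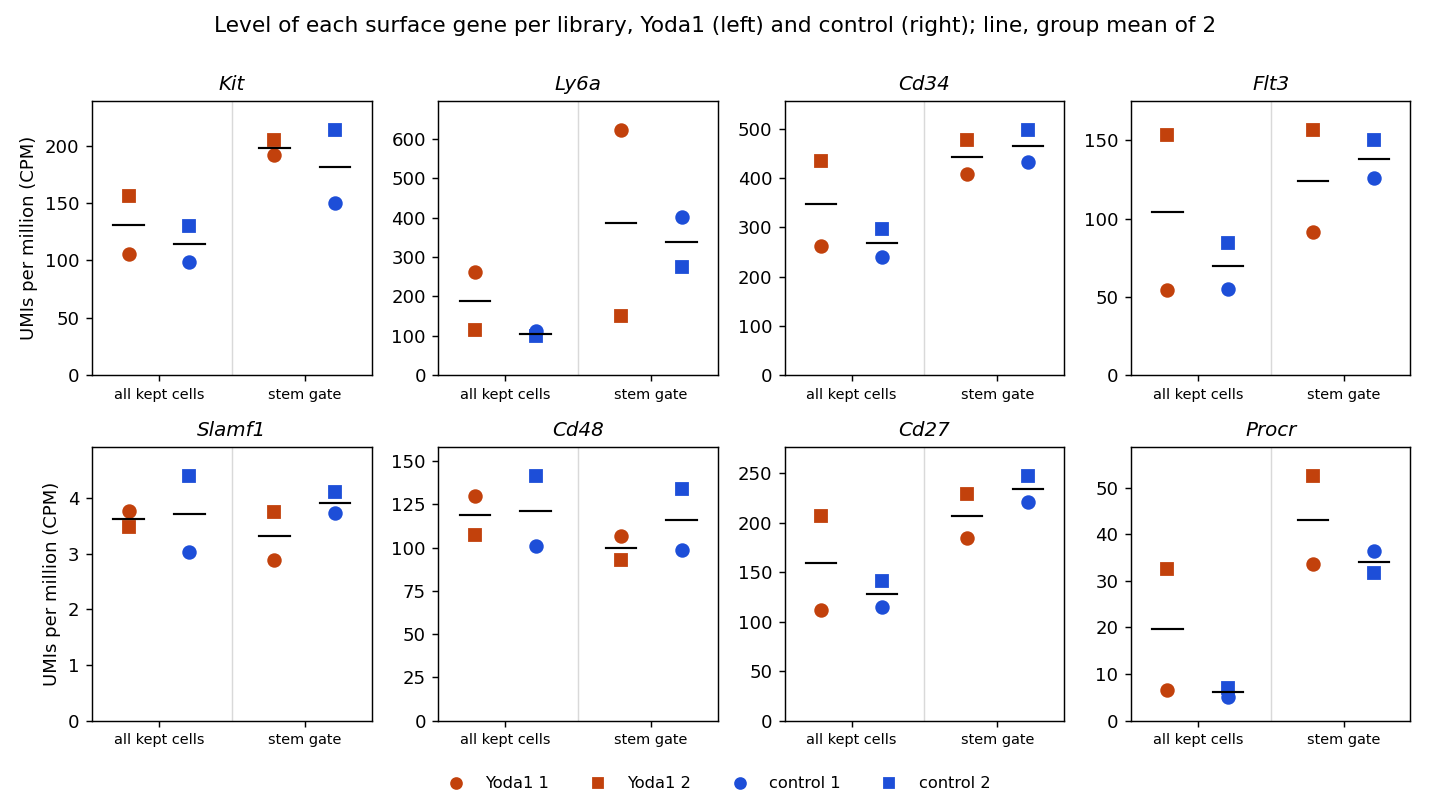
Level of each gene in CPM (vertical axis from 0) in each library, over all kept cells and in the stem gate, with Yoda1 left of control and a line at the mean of the 2 libraries. Over all kept cells only Ly6a has both Yoda1 points above both control points, at 262 and 114 against 113 and 97.9 CPM, and in the stem gate the groups overlap in all 8 genes.

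No member passed the test of Yoda1 against control over all kept cells. On the summed counts edgeR's quasi-likelihood test found 0% of 18182 genes at a Benjamini-Hochberg adjusted p under 0.05, and 309 genes had an unadjusted p under that value. The calls of DESeq2 numbered 5 and those of limma-voom 0, none of them a member. The 2 largest fitted log2 fold changes among the members were those of Procr, 1.59 ± 0.59 (SE, edgeR's quasi-likelihood test, unadjusted p = 0.0326, adjusted p = 1), and Ly6a, 0.83 ± 0.43 (adjusted p = 1). Those of the other 6 lay between -0.06 for Slamf1 and 0.49 for Flt3. Each of these 2 values rested on 1 library. Without Yoda1 2 the value of Ly6a was 1.38, and without Yoda1 1 it was -0.06. Without Yoda1 2 the value of Procr was 0.22. Without Yoda1 1 the value of Procr was 2.27 and that of Flt3 was 0.99. Fits left with 1 Yoda1 library take their spread from the controls, so only these sizes are given.

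The mix of gates also differed between the libraries. When the 5 gates, the ungated cells and the cells of more than 1 gate were each given their mean share of UMIs over the 4 libraries as a fixed weight, a weighting chosen after the data had been seen, the groups overlapped in all 8 genes. Ly6a was then at 297 and 80.1 CPM in Yoda1 and 168 and 114 CPM in control. Under this weighting Yoda1 2 was the lowest of the 4 libraries for Ly6a. It reset the shares of all these classes at once, so the part of the stem gate alone was not tested. Procr was at 8.42 and 21.9 CPM in Yoda1 and 8.85 and 8.76 CPM in control, so its excess in Yoda1 2 was smaller than in the unweighted sums but did not vanish. In sums over many cells, fewer cells of a type and less RNA per cell cannot be told apart.

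Within the stem gate (833, 2885, 402 and 674 cells) none of the 8 genes separated the groups. Kit was at 192 and 205 CPM in Yoda1, against 150 and 213 CPM in control. Ly6a was at 621 and 150 CPM in Yoda1, against 400 and 275 CPM in control, so the 2 Yoda1 libraries were the highest and the lowest of the 4. Procr was at 33.5 and 52.6 CPM in Yoda1, against 36.4 and 31.8 CPM in control. Cd34, Flt3, Slamf1, Cd48 and Cd27 had fitted log2 fold changes of -0.06 ± 0.13, -0.15 ± 0.23, -0.20 ± 0.33, -0.21 ± 0.17 and -0.17 ± 0.14 (SE). Here the same edgeR test found 0% of 12759 genes, 206 had an unadjusted p under 0.05, and DESeq2 gave 1 call and limma-voom 0, again no member. The share of all genes with both Yoda1 libraries above both controls was 12%, and the share below was 13.3%. Left with Yoda1 2 alone, the fitted log2 fold change of Ly6a was -1.20, and left with Yoda1 1 alone it was 0.92. A fit with 1 Yoda1 library takes its spread from the controls, so no p is given.

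Ly6a followed 1 order of libraries in nearly every gate. In the stem, lymphoid, granulocyte-monocyte and monocyte-dendritic gates, and among ungated cells, Yoda1 1 was highest, then control 1, then control 2, and Yoda1 2 was lowest. In the lymphoid gate the levels were 571 and 72.3 CPM in Yoda1, against 317 and 208 CPM in control. In the granulocyte-monocyte gate they were 127 and 19.8 CPM in Yoda1, against 75.7 and 25.9 CPM in control. The megakaryocyte-erythroid gate was the exception, with 60.2 and 27.8 CPM in Yoda1 against 24.8 and 18.0 CPM in control, so both Yoda1 libraries lay above both controls there, as 10.7% of 14090 genes did. The difference of the Ly6a change between the megakaryocyte-erythroid and stem gates was 0.95 ± 0.22 on the log2 scale (SE, edgeR interaction with library as a block, unadjusted p = 0.00135, adjusted p = 1) and did not pass.

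The interferon list, 8 genes from Ifit1 to the transcription factor Irf7, was ordered in the same way as Ly6a in 3 of the 5 gates. It summed to 2132 and 351 CPM in the stem gate of the Yoda1 libraries, against 762 and 628 CPM in the controls. In the lymphoid gate it summed to 2187 and 342 CPM in Yoda1, against 766 and 547 CPM in control. In the megakaryocyte-erythroid gate it was 1135 and 251 CPM in Yoda1, against 516 and 312 CPM in control, where Yoda1 2 had the lowest interferon sum but not the lowest Ly6a. In the monocyte-dendritic gate, which had 34 cells in Yoda1 2, it was 1523 and 815 CPM in Yoda1, against 683 and 581 CPM in control, and here too its order was not that of Ly6a. All 8 interferon genes had positive fitted log2 changes over all kept cells (median 0.97, against 0.01 over all genes) and 0 of 8 passed edgeR's test. The part of the interferon genes in the level of Ly6a was not tested.

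**Figure D2:**
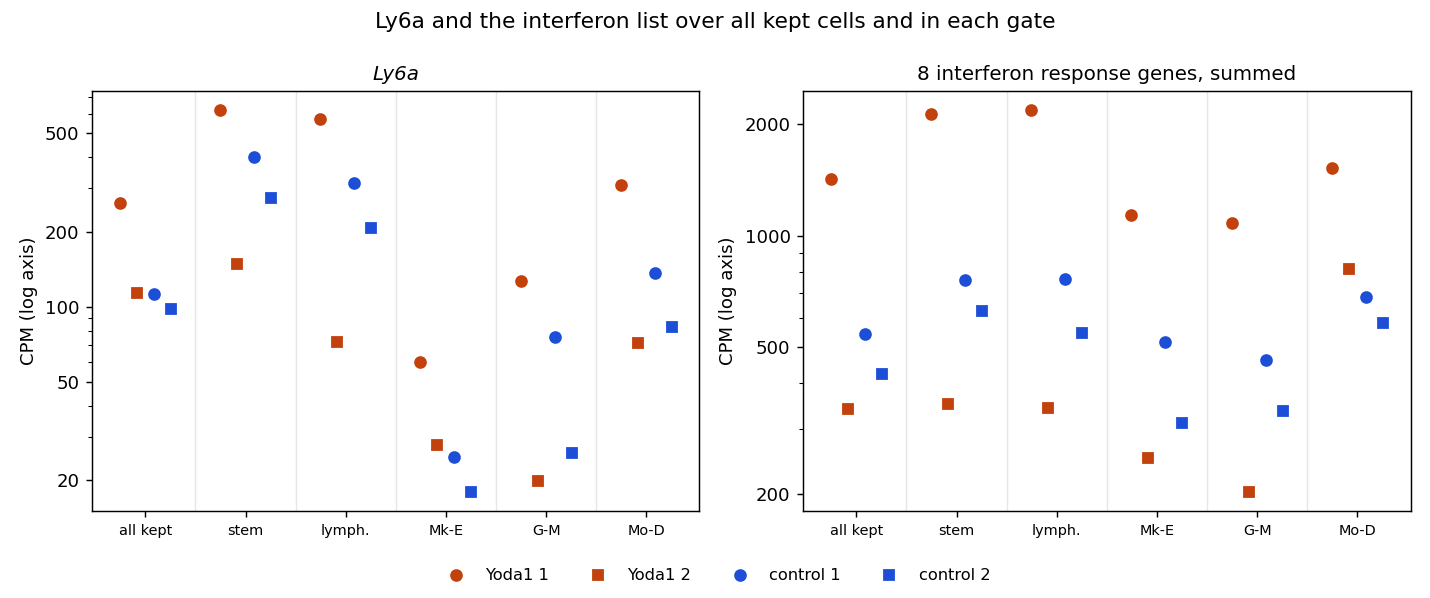
Left, Ly6a, and right, the sum of 8 interferon response genes, in CPM on log axes, per library over all kept cells and in the stem, lymphoid, megakaryocyte-erythroid (Mk-E), granulocyte-monocyte (G-M) and monocyte-dendritic (Mo-D) gates. In the stem gate Yoda1 1 is highest and Yoda1 2 lowest in both panels, at 621 and 150 CPM of Ly6a and 2132 and 351 CPM of the list.

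Across the gates the 8 genes fell into distinct orders, given here as means over the 4 libraries of both groups. Kit was highest in the stem gate, at 190 ± 27.9 CPM (SD over the 4 libraries), then in the megakaryocyte-erythroid gate at 121 ± 16.3 CPM and the granulocyte-monocyte gate at 91.6 ± 8.32 CPM. It was lowest in the monocyte-dendritic gate at 69.5 ± 11.6 CPM and the lymphoid gate at 56.7 ± 14.3 CPM, whose ranges overlap. The stem gate lay above the lymphoid gate in Kit by 1.61 ± 0.09 on the log2 scale (SE, edgeR's quasi-likelihood test with library as a block, adjusted p = 4.12e-10, higher in 4 of 4 libraries). It lay above the megakaryocyte-erythroid gate by 0.44 ± 0.06 (adjusted p = 4.38e-05) and above the granulocyte-monocyte gate by 0.66 ± 0.07 (adjusted p = 1.26e-07).

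These gate contrasts called many genes, so a call alone says little about a member. With the marker genes of the gates left out, 44% of 12069 genes differed between the stem and lymphoid gates, 66.8% of 13717 between the stem and megakaryocyte-erythroid gates, and 67.8% of 13552 between the stem and granulocyte-monocyte gates. Of the 8 members 7, 8 and 8 were called, in that order of contrasts. Higher in the stem gate were 5, 7 and 7 members (background 21.8%, 33.4% and 34.7%), and lower were 2, 1 and 1 (background 22.2%, 33.4% and 33.1%). Slamf1 in the lymphoid and granulocyte-monocyte contrasts, and Procr in the lymphoid one, passed the filter on low counts through the stem gate alone, so those 3 calls are not used and nothing is read from the counts. The sizes and directions per gene carry the description.

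Ly6a was at 362 ± 201 CPM in the stem gate, 292 ± 211 in the lymphoid gate, 150 ± 110 in the monocyte-dendritic gate, 62.0 ± 49.8 in the granulocyte-monocyte gate and 32.7 ± 18.8 in the megakaryocyte-erythroid gate. The SDs are wide because the libraries differ as described above, and within each library the stem gate was above the other 4. The stem gate exceeded the megakaryocyte-erythroid gate by 3.29 ± 0.18 on the log2 scale (edgeR adjusted p = 3.35e-08) and the granulocyte-monocyte gate by 2.33 ± 0.12 (adjusted p = 4.62e-12). Against the lymphoid gate the difference was 0.33 ± 0.10 (edgeR adjusted p = 0.0161). That call was lost without Yoda1 2 (0.16, adjusted p = 0.198) and with DESeq2 (0.34, adjusted p = 0.207).

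Cd34, Cd27 and Flt3 had their lowest mean in the megakaryocyte-erythroid gate, as did Ly6a and Cd48. Cd34 was at 454 ± 40.5 CPM in the stem gate and 78.6 ± 33.8 CPM in the megakaryocyte-erythroid gate, a log2 difference of 2.4 ± 0.13 (edgeR adjusted p = 3.64e-08). Its stem and lymphoid levels lay close, with a difference of 0.22 ± 0.07 (edgeR adjusted p = 0.0275) that DESeq2 did not call (adjusted p = 0.0607) and that was lost without any of 3 libraries (Yoda1 2, control 1 or control 2, with adjusted p from 0.0543 to 0.243). Cd27 was at 220 ± 26.3 CPM in the stem gate and 221 ± 20.8 CPM in the lymphoid gate (edgeR log2 difference -0.13 ± 0.07, adjusted p = 0.142), and at 47.1 ± 14.7 CPM in the megakaryocyte-erythroid gate. Flt3 was highest in the lymphoid gate, at 231 ± 26.1 CPM, against 131 ± 29.5 CPM in the stem gate and 13.9 ± 9.0 CPM in the megakaryocyte-erythroid gate. The stem gate was below the lymphoid gate in Flt3 by a log2 difference of -0.94 ± 0.09 (edgeR adjusted p = 3.37e-07) and above the megakaryocyte-erythroid gate by 3.18 ± 0.16 (adjusted p = 1.72e-08).

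Over the 20 sums of 5 gates in 4 libraries the log2 levels of Cd34 and Cd27 ran together (Pearson r = 0.953), as did Flt3 and Cd27 (0.921) and Cd34 and Flt3 (0.889). These points share libraries and depth, so the values describe the sums and carry no p. The 3 genes most like Flt3 among 7808 genes were Gpr171, Rnf13 and Ppp1r18 (r from 0.985 to 0.989). Those most like Cd34 were Fxyd5, Lcp1 and Tnfrsf13b (r from 0.975 to 0.978), and those most like Cd27 were Tespa1, Rassf2 and Hoxa7 (r from 0.966 to 0.986).

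Procr had the largest fitted excess of the 8 genes in the stem gate over the megakaryocyte-erythroid gate, and likewise over the granulocyte-monocyte gate. It was at 38.6 ± 9.52 CPM in the stem gate and between 2.14 and 3.58 CPM on average in the other 4 gates. After each cell was thinned to 3000 UMIs, so that depth did not differ, 11% and 16.4% of stem-gated cells in Yoda1 had a Procr UMI, against 12.2% and 10.7% in control. In the megakaryocyte-erythroid gate the thinned share was 0.302% and 1.94% in Yoda1, against 0.504% and 0.702% in control, and in the lymphoid gate it was 0.243% and 1.7% in Yoda1, against 0.122% and 0.348% in control. Free RNA can give cells that do not express a gene such low shares, so these shares are not taken to show expression in those gates. Yoda1 2 was the highest library in all 3 of these gates. Transcripts of the 4 granulocyte-monocyte gate genes together were at 296 to 569 CPM in the megakaryocyte-erythroid gate and 576 to 1196 CPM in the stem gate, and how much of any such signal is free RNA was not tested. Before thinning the stem-gated cells were the shallower ones, with a median of 6690 to 7778 UMIs against 11017 to 11762 UMIs. The stem gate exceeded the megakaryocyte-erythroid and granulocyte-monocyte gates by 4.11 ± 0.20 and 3.21 ± 0.13 on the log2 scale (edgeR adjusted p = 1.55e-08 and 1.67e-13), each in 4 of 4 libraries. The lymphoid gate held 2 and 37 Procr UMIs in Yoda1, against 1 and 6 in control. The genes most like Procr were Atp10d, Fnip1 and Neurl3 (r from 0.903 to 0.940).

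**Figure D3:**
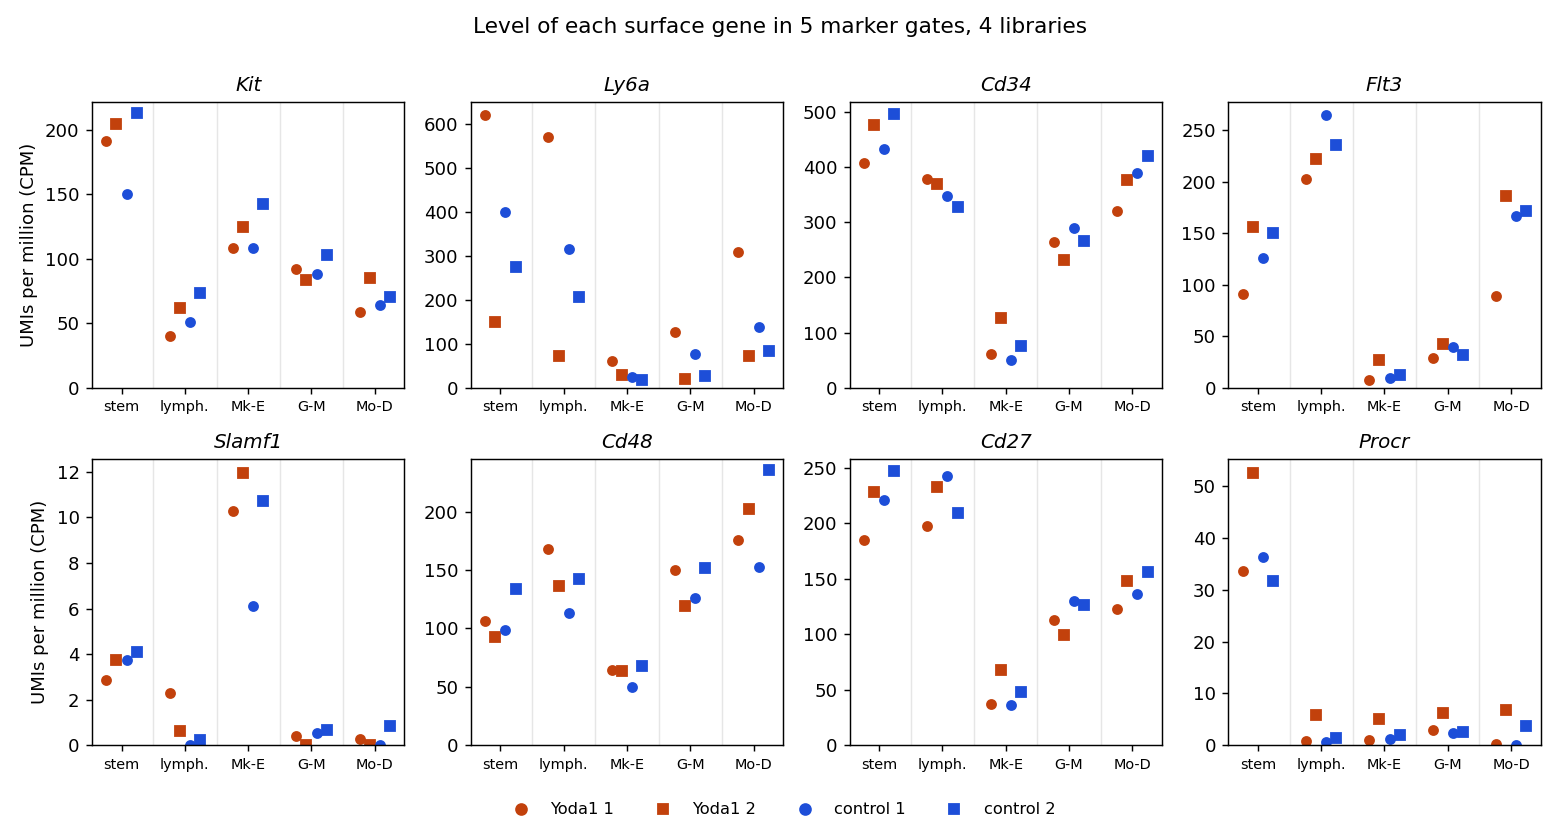
Level of each gene in CPM (vertical axes from 0, a different scale per gene) in 5 gates, per library, with the Yoda1 libraries left of the controls within each gate. Slamf1 is highest in the megakaryocyte-erythroid gate (Mk-E) in all 4 libraries, while Procr is at 31.8 to 52.6 CPM in the stem gate and at most 6.74 CPM in any other.

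Slamf1 was highest outside the stem gate. In the megakaryocyte-erythroid gate it had 213 and 77 UMIs in Yoda1, against 137 and 199 UMIs in control, which is 10.3 and 12 CPM against 6.11 and 10.7 CPM. In the stem gate it had 19 and 102 UMIs in Yoda1, against 13 and 22 UMIs in control, which is 2.88 and 3.75 CPM against 3.73 and 4.11 CPM. The stem gate was lower by a log2 difference of -1.72 ± 0.17 (edgeR adjusted p = 3.60e-06, lower in 4 of 4 libraries). With 1 more marker gene needed per gate the difference was -0.60 and no longer passed (adjusted p = 0.0968).

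The lymphoid gate held 6 and 4 Slamf1 UMIs in Yoda1, against 0 and 1 in control, and the granulocyte-monocyte gate 7 and 0 in Yoda1, against 12 and 13 in control. These counts are too low for a test of either gate, and the levels were below that of the stem gate in 4 of 4 libraries. At 3000 UMIs per cell 0.954% and 1.23% of stem-gated cells in Yoda1 had a Slamf1 UMI, against 1.26% and 1.13% in control. The granulocyte-monocyte gate, deeper before thinning at 13568 to 16935.5 UMIs, gave 0.108% and 0% in Yoda1, against 0.198% and 0.295% in control. The 0 stands for 174 cells, which allows a share of up to 1.72% of cells with a UMI, and intervals and limits here cover counting error only. The genes most like Slamf1 over the gates were Hemgn, Cavin2 and the platelet glycoprotein gene Gp9 (r from 0.939 to 0.950).

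Cd48 ran the other way, with r = -0.779 between the levels of Slamf1 and Cd48 over the 20 sums, the lowest of the 28 pairs of members. It was at 61.5 ± 7.72 CPM in the megakaryocyte-erythroid gate and 108 ± 18.0 CPM in the stem gate, and at 192 ± 35.6 CPM in the monocyte-dendritic gate. The lymphoid gate at 140 ± 22.5 CPM and the granulocyte-monocyte gate at 137 ± 16.6 CPM were not ordered, each being higher in 2 of 4 libraries. The stem gate was lower in Cd48 than the lymphoid gate by -0.53 ± 0.09 (edgeR adjusted p = 0.000151) and than the granulocyte-monocyte gate by -0.72 ± 0.07 (adjusted p = 1.71e-08), and higher than the megakaryocyte-erythroid gate by 0.59 ± 0.07 (adjusted p = 1.53e-05). Most like Cd48 were Ifngr2, Psmb8 and Casp1 (r from 0.943 to 0.958).

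Slamf1 and Cd48 are neighbours, with 61869 bases between them on chromosome 1 in GRCm38, and their opposite order over the gates is why their start regions are shown. The RefSeq table (GRCm38.p6) gave a window of 250 bases before to 50 after the start for 7 of the 8 members. Each was searched on both strands for AGATAA and TGATAA, 2 spellings of the motif bound by GATA factors, and capitals below mark the match. Both sequences are on the plus strand, Slamf1 at chr1:171766882-171767181 and Cd48 at chr1:171681742-171682041.
Slamf1: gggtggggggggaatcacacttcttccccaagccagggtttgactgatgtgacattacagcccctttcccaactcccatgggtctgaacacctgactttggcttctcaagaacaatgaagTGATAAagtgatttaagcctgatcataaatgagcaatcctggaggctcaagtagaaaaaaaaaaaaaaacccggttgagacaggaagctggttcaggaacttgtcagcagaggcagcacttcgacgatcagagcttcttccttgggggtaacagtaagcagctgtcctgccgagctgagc
Cd48: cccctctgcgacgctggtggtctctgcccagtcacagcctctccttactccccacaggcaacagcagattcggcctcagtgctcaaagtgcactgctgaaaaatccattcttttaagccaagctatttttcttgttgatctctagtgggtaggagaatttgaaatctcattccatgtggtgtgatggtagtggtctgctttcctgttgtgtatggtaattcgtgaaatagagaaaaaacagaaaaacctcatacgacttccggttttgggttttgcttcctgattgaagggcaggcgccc
Slamf1 was the 1 member of the 7 with a match, whose first base is at -130 from the start, and 18.6% of all 32851 promoter windows hold at least 1. A match is a description of these letters, not a bound site, and the absence of one elsewhere says only that these letters are not in that window.

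The SLAM phenotype was then read per cell at 3000 UMIs. A Slamf1 UMI without a Cd48 UMI was expected in 1.08% and 0.899% of Yoda1 cells, against 0.861% and 1.19% of control cells, a difference of -0.0316 percentage points (p = 1 in an exact permutation test, two-sided, where 0.333 is the smallest p that 6 arrangements of the libraries allow). At full depth the shares were 1.82% and 1.69% in Yoda1, against 1.61% and 1.98% in control. A cell with no Cd48 UMI is not shown to lack the transcript, since at 3000 UMIs 67.6% and 74.5% of Yoda1 cells, against 73.3% and 65.7% of control cells, had neither gene. In the granulocyte-monocyte gate the thinned share was 0.0740% and 0% in Yoda1, against 0.138% and 0.215% in control.

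Slamf1-positive, Cd48-negative cells by transcript were placed in the gates beside all kept cells. At full depth there were 166 and 165 such cells in Yoda1, against 123 and 155 in control. Of these, 8.43% and 36.4% in Yoda1, against 5.69% and 5.16% in control, passed the stem gate. The share of all kept cells in it was 9.13% and 29.6% in Yoda1 and 5.28% and 8.62% in control. The share among the Slamf1-positive, Cd48-negative cells was above that in Yoda1 2 and control 1, and below it in Yoda1 1 and control 2. It rested on 14 and 60 cells in Yoda1, against 7 and 8 in control, and enrichment was not tested. The megakaryocyte-erythroid gate held 46.4% and 19.4% of them in Yoda1, against 52.0% and 51.6% in control. Of all kept cells it held 16.9% and 4.68% in Yoda1 and 21.2% and 18.1% in control, a lower share in each of the 4 libraries. The transcript of Gata1 in these cells was at 87.5 and 44.2 CPM in Yoda1, against 125 and 76.2 CPM in control, above its level over all kept cells in each library (35.7 and 11.3 CPM in Yoda1, against 55.6 and 34.2 CPM in control). Gata1 and the stem cell factor gene Hlf are gate genes, so these levels restate the gates in part. Hlf was at 82.4 and 234 CPM in these cells in Yoda1, against 46.7 and 78.2 CPM in control, where all kept cells had 72.0 and 272 CPM in Yoda1 and 58.9 and 78.4 CPM in control.

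Kit and Ly6a, the pair that defines the sort, were found together in 15.4% and 11.7% of Yoda1 cells at 3000 UMIs, against 8.06% and 9.52% of control cells. The difference was 4.75 percentage points, and both Yoda1 libraries were above both controls (p = 0.333 in the same exact test, the smallest possible). Without Yoda1 1, the library with the high Ly6a level, the difference was 2.87 percentage points. Had the 2 genes been independent, Yoda1 1 would have had 14.2% of cells with both. The observed share was 1.08 to 1.10 times that expectation in every library, so the 2 transcripts met slightly more often than independence gives.

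Ratios of observed to expected co-detection described all 28 pairs. Free RNA enters such ratios, and its part was not tested. Over all kept cells 17 pairs were above 1 in all 4 libraries and 7 were below 1 in all 4. Of those 7, 5 involved Slamf1, and the other two were Cd48 with Kit and Cd48 with Procr. The lowest were Slamf1 with Flt3, at 0.330 and 0.354 in Yoda1 and 0.195 and 0.401 in control, and Slamf1 with Cd34, at 0.477 and 0.606 in Yoda1 and 0.448 and 0.546 in control. Slamf1 with Cd48 was at 0.649 and 0.624 in Yoda1 and 0.770 and 0.593 in control. Kit was the 1 partner with which Slamf1 was above 1 in all 4 libraries, at 1.34 and 1.29 in Yoda1 and 1.30 and 1.19 in control. The highest ratio was Ly6a with Procr, at 1.7 and 1.38 in Yoda1 and 2.49 and 2.09 in control. The ratio of Cd48 with Procr was 0.758 and 0.678 in Yoda1, against 0.729 and 0.858 in control.

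Inside the stem gate 9 pairs were below 1 in all 4 libraries. Cd48 with Procr was low here too, at 0.634 and 0.661 in Yoda1 and 0.767 and 0.592 in control. Flt3 with Procr was below 1 in all 4 libraries of the stem gate, at 0.848 and 0.867 in Yoda1 and 0.790 and 0.815 in control. Over all kept cells the same pair was above 1 in 3 of 4 libraries (1.26 and 0.888 in Yoda1, 1.45 and 1.30 in control). Cd34 with Procr lay on opposite sides likewise, with ratios between 0.896 and 0.953 in the stem gate and between 1.01 and 1.36 over all kept cells. The stem-gated cells with a Procr UMI thus had Flt3, Cd34 and Cd48 UMIs less often than independence gives, and Ly6a UMIs more often (1.09 and 1.17 in Yoda1, 1.2 and 1.25 in control). Slamf1 pairs in this gate rest on 13 to 102 UMIs per library and were not read further.

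**Figure D4:**
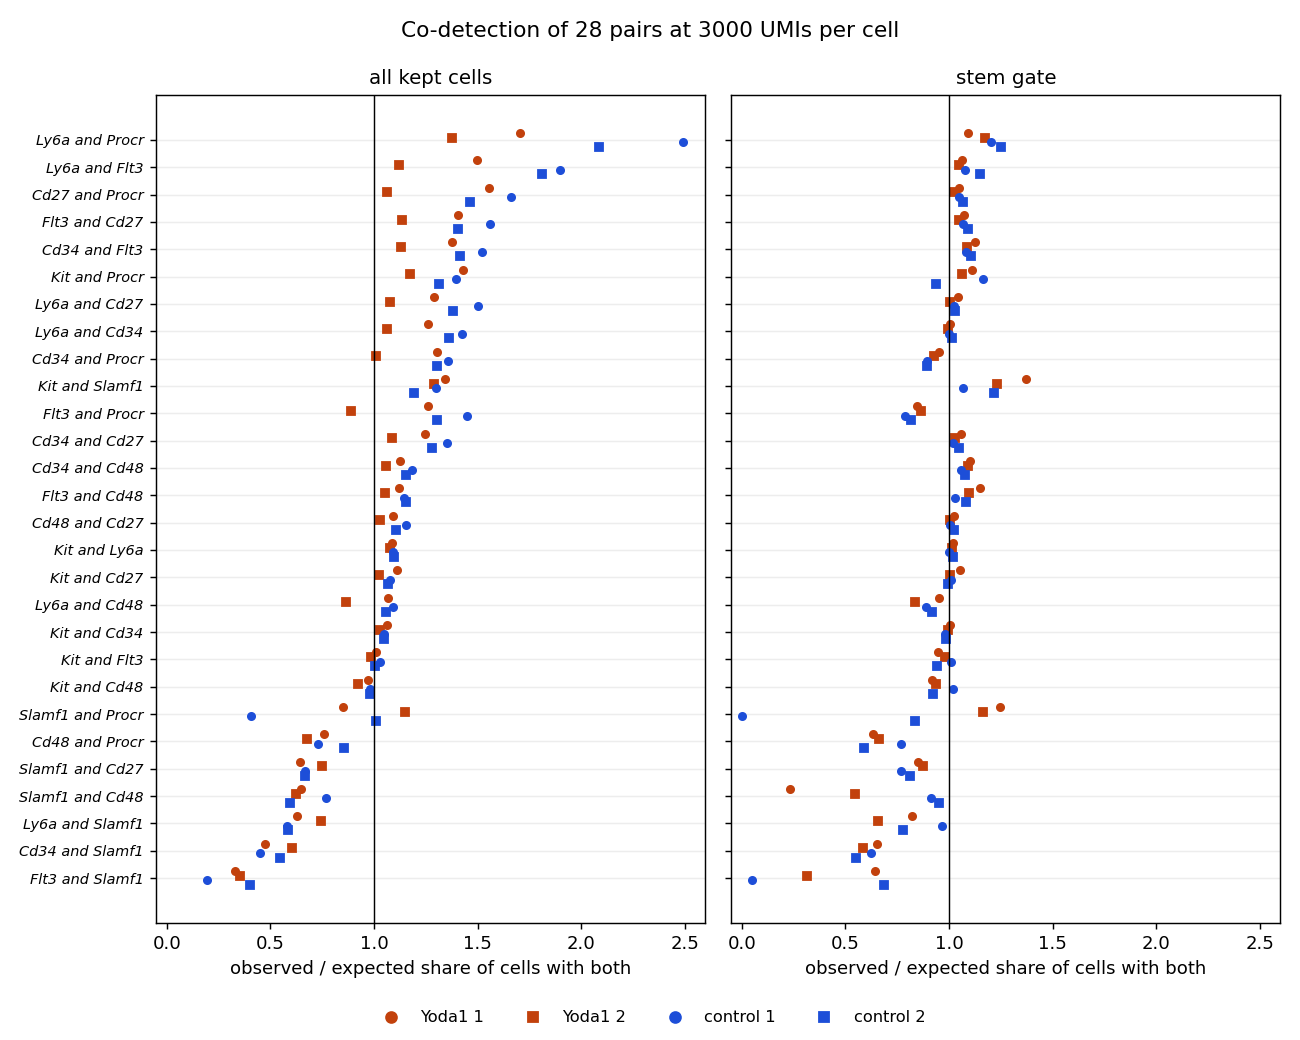
Observed over expected share of cells with both transcripts for all 28 pairs of members, each cell thinned to 3000 UMIs, with 1 point per library, over all kept cells (left) and in the stem gate (right); the line at 1 is independence. Pairs of Slamf1 with Flt3, Cd34, Ly6a, Cd48 and Cd27 lie below 1 in every library in the left panel, and Flt3 with Procr lies at 0.790 to 0.867 in the right panel.

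Cycling cells of the stem gate differed from its other cells in the same direction in all 4 libraries for 5 members. Cells with transcripts of at least 3 of 6 cycling genes, such as Mki67 and Top2a, numbered 291, 871, 146 and 182. Procr was lower in them, at 21.8 and 32.4 CPM in Yoda1 and 22.5 and 20.9 CPM in control, against 45.4 and 69.6 CPM in Yoda1 and 52.4 and 39.3 CPM in control for the other stem-gated cells. Ly6a was lower by log2 values of -0.93 and -0.97 in Yoda1 and -0.80 and -1.16 in control. Kit was lower by -0.43 and -0.33 in Yoda1 and -0.34 and -0.46 in control, and Cd27 by -0.25 and -0.19 in Yoda1 and -0.20 and -0.26 in control.

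Cd48 was the 1 member higher in cycling stem-gated cells in all 4 libraries, by log2 values of 0.20 and 0.66 in Yoda1 and 0.40 and 0.45 in control. Cd34, Flt3 and Slamf1 had both signs among the libraries. The cycling cells had a median of 10577 to 12968 UMIs and the others 5488 to 6312 UMIs, and the part of that depth in these differences was not tested. The split was added after the data had been seen, and its values are a description with no test.

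**Figure D5:**
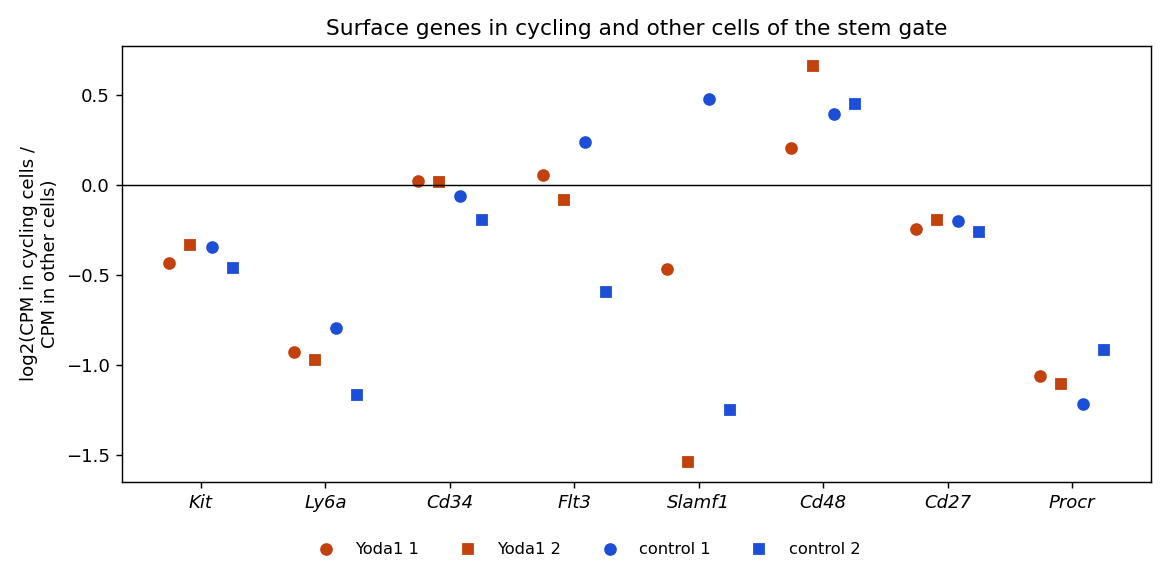
Log2 ratio of CPM in cycling over other cells of the stem gate for each gene, 1 point per library, with a line at 0 for equal levels. Kit, Ly6a, Cd27 and Procr lie below 0 and Cd48 above 0 in all 4 libraries, with Procr between -1.22 and -0.91.

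In the gates outside the stem gate the groups were compared by overlap in CPM only, apart from a test of the difference between gates. In the lymphoid gate both Yoda1 libraries were above both controls for Cd34 (378 and 371 CPM in Yoda1, against 349 and 329 CPM in control) and for Slamf1, and below for Flt3 (203 and 222 CPM in Yoda1, against 265 and 235 CPM in control). There 11.4% of 11182 genes were above and 21.7% below. The lineage antigens of this gate summed to 15.7 and 348 CPM in Yoda1, against 228 and 507 CPM in control. The part of that difference in these levels was not tested. Slamf1 rested on the few UMIs given above and did not pass the filter on low counts in that gate. In the granulocyte-monocyte gate Procr was above (3.01 and 6.28 CPM in Yoda1, against 2.37 and 2.65 CPM in control). It rested on 54 and 19 UMIs in Yoda1, against 51 and 51 UMIs in control. Such low levels are not taken to show expression in this gate. Cd34 and Cd27 were below there, beside backgrounds of 7.6% above and 18.3% below. For Cd34 the thinned shares of cells with a UMI overlapped between the groups. Slamf1 was below as well, on 7 and 0 UMIs in Yoda1 against 12 and 13 in control, where the 0 comes from 174 cells. In the monocyte-dendritic gate Cd34 was below, beside backgrounds of 10.2% above and 18.5% below.

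For 5 pairs of gates the difference of the Yoda1 change was fitted across all genes with edgeR, with library as a block. The fits called 0%, 0.00904%, 0%, 0% and 0.0345% of genes, and none of the 38 member values that passed the filter was called. The smallest unadjusted p among them were that of Ly6a given above and that of Cd48, whose change differed between the lymphoid and stem gates by 0.52 ± 0.14 (edgeR, unadjusted p = 0.00157, adjusted p = 1).

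Other genes of the same systems were read from lists. Of the SLAM family and its adaptors, 9 of 10 listed symbols (Cd244 is an older name of Cd244a) passed the filter over all kept cells, and 0 passed the test of Yoda1 against control in either direction (median log2 change -0.49, against 0.01 over all genes). The most abundant was Cd84, at 36.1 and 53.8 CPM in Yoda1, against 41.6 and 45.6 CPM in control. Cd244a, which encodes the receptor of CD48, was at 16.6 and 27.0 CPM in Yoda1, against 14.6 and 20.7 CPM in control. The fitted changes of Cd84 and Cd244a were -0.02 and 0.24, and the median was that of a gene at 3.22 CPM on average. Unlike Slamf1, Cd244a was higher in the stem gate than in the megakaryocyte-erythroid gate, by 2.44 ± 0.16 on the log2 scale (edgeR adjusted p = 1.23e-07). In that contrast 4 of 5 tested family members were higher and 0 lower, with a median of 1.73 against 0.02 over all genes. Of all genes 33.4% were called higher and 33.4% lower. Which gate carried each family member past the filter on low counts was not checked, so nothing is read from that count.

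Of 19 other surface genes of stem cells and progenitors, 0 passed the test of Yoda1 against control over all kept cells (median 0.09) or, of 18 tested, in the stem gate (median -0.02). Between the stem and granulocyte-monocyte gates 12 of 18 were higher in the stem gate and 2 lower (34.7% and 33.1% of all genes). Between the stem and lymphoid gates 9 of 17 were higher in the stem gate and 6 lower (21.8% and 22.2% of all genes). Which gate carried each listed gene past the filter on low counts was not checked, so nothing is read from these gate counts. Of the abundant genes of the list, Cd47 was at 609 and 660 CPM in Yoda1, against 572 and 716 CPM in control. Cd81 was at 178 and 279 CPM in Yoda1, against 205 and 199 CPM in control. Ptprc, which encodes the pan-leukocyte antigen CD45, was at 98.9 and 149 CPM in Yoda1, against 88.8 and 113 CPM in control, and the groups overlapped in all 3 genes. Of 6 ligands and partners, Kitl, the ligand of Kit, was at 0.0905 and 0.0994 CPM in Yoda1, against 0.165 and 0.157 CPM in control, and Cd70, the ligand of CD27, was at 0 CPM in 3 of 4 libraries. None of the 5 tested passed between Yoda1 and control.

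In the Ly6 family beside Ly6a, Ly6e was the most abundant, at 1143 and 568 CPM in Yoda1, against 959 and 848 CPM in control, with Yoda1 2 the lowest of the 4. Ly6c2, which is carried by maturing myeloid cells, was at 384 and 55.7 CPM in Yoda1, against 253 and 190 CPM in control. Of 5 tested genes of the family 0 passed (median log2 change 0.67). The fitted changes of Ly6e and Ly6c2 were -0.09 and 0.02, and the median was that of a gene at 0.85 CPM on average. The genes most like Ly6a over the gate sums were Trim14, Shisa5 and Dtx3l (r from 0.940 to 0.948), and those most like Kit were Dapp1, Rab38 and Rhobtb3 (r from 0.936 to 0.955).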

How the data were processed

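Per the file headers, Cell Ranger 7.1.0 wrote the deposited matrices of raw UMI counts (genes by barcodes). The submitters' processing notes add Seurat 4.3.0, GRCm38 and mm10. The annotation release, and whether intronic reads entered, are not given in the sources used here. The files pair gene identifiers with symbols, and 52081 of 55357 identifiers (94.1%) matched GENCODE M21, which gave the positions. A count covers the whole gene, with no split by exon, intron or UTR.

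Barcodes with 500 genes, 1000 UMIs or more and no more than 10% mitochondrial UMIs were kept, which left 110493533, 90577494, 103007020 and 89058521 UMIs (Yoda1 1, Yoda1 2, control 1, control 2). Scrublet, run per library, marked 0, 0, 635 and 2 cells. Its threshold was judged to have failed, and no doublets were removed. In an alternative, the top-scoring cells were dropped at a rate of 0.8% per 1000 cells. The granulocyte-monocyte gate needed at least 3 UMIs of each of 3 genes, the other gates 1 UMI per gene.

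Counts were summed per library, or per library and gate, filtered with filterByExpr, scaled by TMM and tested with edgeR 4.0.16 under R 4.3.3 (quasi-likelihood test, Benjamini-Hochberg adjustment over all tested genes, threshold 0.05). CPM values printed use the plain UMI total of the sum, without TMM. The SE of a log2 fold change is its size over the root of its F statistic. Thinned shares are the expected share of cells with a UMI when 3000 UMIs are drawn from each cell, and 154, 446, 226 and 252 shallower cells were left out. Likeness is Pearson's r of log2(CPM + 1) among genes with at least 10 CPM on average, without gate genes, members and predicted, ribosomal or mitochondrial symbols. The alternatives included RLE scaling, limma-voom (limma 3.58.1), DESeq2 1.42.0, no filter, a stricter cell filter (at least 1000 genes, at most 5% mitochondrial UMIs), every barcode, doublets removed, stricter gates, other blocks, thinning to 2000 UMIs and each library left out. The fits were tested on simulated counts. Libraries of 1 group differed by more than sampling noise. Named are the 8 members, the 3 genes most like each, and up to 4 abundant genes per list. One gene that this rule names is not reported here. The members and lists were chosen with earlier results of these data known. The comparison with the same mix of gates in every library, the cycling split and the differences between gates were added after seeing the data.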

Additional observations from a re-analysis of the deposited data

Results flagged for a closer look

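For Cd34 the 2 Yoda1 libraries lay together above the controls in the lymphoid gate and together below them in the granulocyte-monocyte and monocyte-dendritic gates. In the lymphoid gate both Yoda1 libraries were above both controls (378 and 371 CPM in Yoda1, against 349 and 329 CPM in control), as were 11.4% of all genes. The lineage antigens of the lymphoid gate differed between libraries, as given above. In the granulocyte-monocyte gate both were below (265 and 232 CPM in Yoda1, against 289 and 267 CPM in control), and likewise in the monocyte-dendritic gate (320 and 377 CPM in Yoda1, against 390 and 421 CPM in control), beside 18.3% and 18.5% of all genes. The difference of log2 fold changes, lymphoid minus granulocyte-monocyte, was 0.33 ± 0.10 (SE, edgeR interaction with library as a block, unadjusted p = 0.00761, adjusted p = 0.982). Lymphoid minus monocyte-dendritic it was 0.39 ± 0.18 (edgeR, unadjusted p = 0.0436, adjusted p = 1). Neither passed, the granulocyte-monocyte gate had 174 cells and the monocyte-dendritic gate 34 cells in Yoda1 2, and the pattern was noticed in the data before the fit.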

How the results depend on the processing

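Members other than Slamf1, whose call there is not used, kept their calls and directions in the contrast of the stem and granulocyte-monocyte gates under all 12 alternatives run. The counts of genes called changed with the tool. DESeq2 called 5 genes over all kept cells, 1 in the stem gate and 3438 between the stem and lymphoid gates, against 0, 0 and 5313 with edgeR. Without the filter on low counts 52 genes were called in the stem gate, and stricter gates gave 2979 between the stem and lymphoid gates. With each library left out in turn, the counts ran from 0 to 938 over all kept cells, from 0 to 116 in the stem gate and from 3420 to 5474 between the stem and lymphoid gates. A group left with 1 library was given the spread of the other group. The members that changed sign when a library was left out had log2 ranges over all kept cells of -0.0406 to 0.294 (Kit), -0.0618 to 1.38 (Ly6a), -0.276 to 0.986 (Flt3), -0.264 to 0.157 (Slamf1), -0.329 to 0.180 (Cd48) and -0.111 to 0.536 (Cd27). In the stem gate they were -0.0812 to 0.387 (Kit), -1.20 to 0.918 (Ly6a), -0.146 to 0.0207 (Cd34), -0.560 to 0.157 (Flt3) and -0.396 to 0.00521 (Cd48). The Slamf1-positive, Cd48-negative difference ran from -0.194 to 0.131 percentage points. In the stem gate Ly6a was at -0.11 with limma-voom, and with stricter gates Cd34 was at 0.02 and Flt3 at 0.19. Between the stem and lymphoid gates Cd27 was at 0.10 with stricter gates. With the same mix of gates in every library 0 members, against 1, had groups that do not overlap in CPM. The causes were not tested. Shared replicate numbers do not pair the libraries by any label, and the number of pairs is 2. With the replicate block 0 genes were called over all kept cells and 0 in the stem gate, where Ly6a was at -0.11. Slamf1 is limited by depth, with at most 416 UMIs in a whole library. The differences between gates were not recomputed under these alternatives.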
